A study of Mus musculus with 28 samples.

Results

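Ventricular myocardium from mice with surgically induced chronic kidney disease (CKD) was compared between 7 mice that had received the gut bacterium Oxalobacter formigenes (CKD-Oxf) and 6 that had received its culture medium (CKD-vehicle). These 13 libraries were chosen by the surgery and gavage named in their titles, out of 28 in the whole series, and each library is 1 mouse. All mice were adult males of the C57BL/6 strain. CKD was produced at 6 weeks of age by 5/6 nephrectomy, a removal of most of the kidney tissue in 2 operations, and the control operation was a sham. Every group, controls included, ate food with added hydroxyproline (1%) and calcium (0.5%). On day 7 a single gavage of 200 µl carried either the bacterium in culture medium or the medium alone. The other groups are 10 sham-vehicle and 5 sham-Oxf libraries. The design text describes 10 mice in each group, and the mice beyond those counted here were not analysed here.

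O. formigenes lives in the intestine and uses oxalate as its energy source. Hydroxyproline is converted to glyoxylate and then to oxalate in the liver, and oxalate leaves the body mainly through the kidney, so it accumulates when kidney tissue is lost. In the uremic heart, pressure and metabolic load are known for hypertrophy, fibrosis and natriuretic peptide induction, and for altered use of fatty acids in the mitochondria. The title of the series names the effect of the bacterium on this remodelling as the question.

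Expression was read as gene counts, with a total per CKD library of 34.3 to 65.4 M (M, mega). Levels are given as CPM (each count relative to a library scaled to 1 M counts, after TMM scaling), and differences as the log2 of CKD-Oxf over CKD-vehicle with its standard error (SE) from edgeR. A gene was called where the p-value of edgeR's quasi-likelihood test, adjusted over all 24273 genes tested by the Benjamini-Hochberg method, was under 0.05. The summed level of 12 defining ventricular cardiomyocyte markers was 49909 to 91768 CPM in the CKD-Oxf libraries and 55331 to 82481 CPM in the CKD-vehicle libraries, and none of them was at 0 in all CKD libraries. CKD-Oxf replicate 4 stood apart from the other 12: it had the fewest genes with a count (27128) and, among the CKD-Oxf libraries, the highest share of 7SL, the small RNA that scaffolds the signal recognition particle, at 20.6%. That share ran from 1.95% to 20.6% in CKD-Oxf and from 2.26% to 20.98% in CKD-vehicle. The groups also differed in a clock score, the mean log2 level of the 12 circadian clock output and repressor genes listed minus that of 7 other clock genes, a list that holds activators together with the repressors Nfil3 and Cry1. It was 1.87 to 3.23 in the CKD-Oxf libraries and -0.26 to 1.79 in the CKD-vehicle libraries, with no overlap, so clock state and gavage cannot be told apart here. Mouse numbers in the titles run from 913 to 920 in CKD-vehicle and from 931 to 940 in CKD-Oxf. Gavage and that order cannot be told apart either. The score was -0.09 at mouse 913 and 1.45 at mouse 920 in CKD-vehicle. In sham-vehicle it was 0.67 at mouse 901 and 2.85 at mouse 910. The part of this order in the results was not tested.

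With all 28 libraries, 8 of 24273 genes were called (0.033%), 6 of them higher (0.0247%) and 2 lower (0.00824%) in CKD-Oxf. A total of 5 were clock output or repressor genes, and the other 3 were Slc41a3, an antisense transcript and a processed pseudogene. Slc41a3 (ENSMUSG00000030089, chr6:90604725-90646412, plus strand) belongs to the SLC41 family of magnesium carriers. It lay at 22.5 to 41.4 CPM (median 30.7) in CKD-vehicle and at 13.02 to 20.6 CPM (median 14.2) in CKD-Oxf. Every CKD-Oxf library was below every CKD-vehicle library, and the log2 difference was -1.05 ± 0.17 (SE; edgeR adjusted p = 0.0156). It was called in 11 of the 13 fits that left out 1 of the CKD libraries.

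The antisense transcript AC113514.2 (ENSMUSG00000087579, chr19:36614052-36705641, minus strand) lay at 4.58 to 7.01 CPM (median 5.66) in CKD-vehicle and at 1.97 to 3.21 CPM (median 2.63) in CKD-Oxf, again with no overlap. Its log2 difference was -1.10 ± 0.19 (edgeR adjusted p = 0.0156). It overlaps Hectd2, a gene on the opposite strand, and the use of strand in counting is not given in the sources used here, so reads of the pair cannot be told apart. Hectd2 itself had 4.58 to 6.45 CPM (median 5.32) in CKD-vehicle and 3.16 to 4.88 CPM (median 3.83) in CKD-Oxf (log2 difference -0.42 ± 0.37, edgeR adjusted p = 0.634). The processed pseudogene RP23-404D8.10 (ENSMUSG00000104103, chr12:113629994-113630867, minus strand) had the opposite direction. It lay at 4.99 to 8.47 CPM (median 6.29) in CKD-vehicle and at 11.04 to 16.1 CPM (median 13.1) in CKD-Oxf, with a log2 difference of 1.03 ± 0.18 (edgeR adjusted p = 0.0156). Counts of a processed pseudogene can hold reads of its parent gene, so its value is uncertain.

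The called clock genes were all higher in CKD-Oxf. Dbp, a transcription factor of the PAR bZIP family that drives clock output, lay at 8.05 to 44.1 CPM (median 20.6) in CKD-vehicle and at 76.3 to 130.2 CPM (median 88.3) in CKD-Oxf (log2 difference 2.08 ± 0.36, edgeR adjusted p = 0.0156). Its family members Hlf and Tef differed by 1.31 ± 0.24 and 1.50 ± 0.28, the repressor Cry2 by 0.98 ± 0.19, and the repressor Bhlhe41 by 0.88 ± 0.17 on the log2 scale. None of these 5 genes had overlapping groups, beside 0.478% of all genes with no overlap. Of the 12 genes of the output and repressor list, 9 rose without CKD-Oxf replicate 4, described below (75%, beside 1.53% of all genes). Per2 (1.91) and Ciart (2.10) were among them. In a second clock list, 4 of 7 genes fell (57.1%, beside 2.29% of all genes). The 4 were the activators Arntl (-1.75), Npas2 (-1.19) and Clock (-0.71), and Nfil3 (-1.13), a repressor that competes with the PAR bZIP factors for their sites. When the clock score entered the edgeR fit as a covariate, 0 genes were called and 1004 had an unadjusted p under 0.05. The called clock genes are part of the score, so the loss of their calls was built in. In that fit the log2 difference of Slc41a3 was -0.24 and that of AC113514.2 was -0.87, both with an adjusted p of 1.

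**Figure D1:**
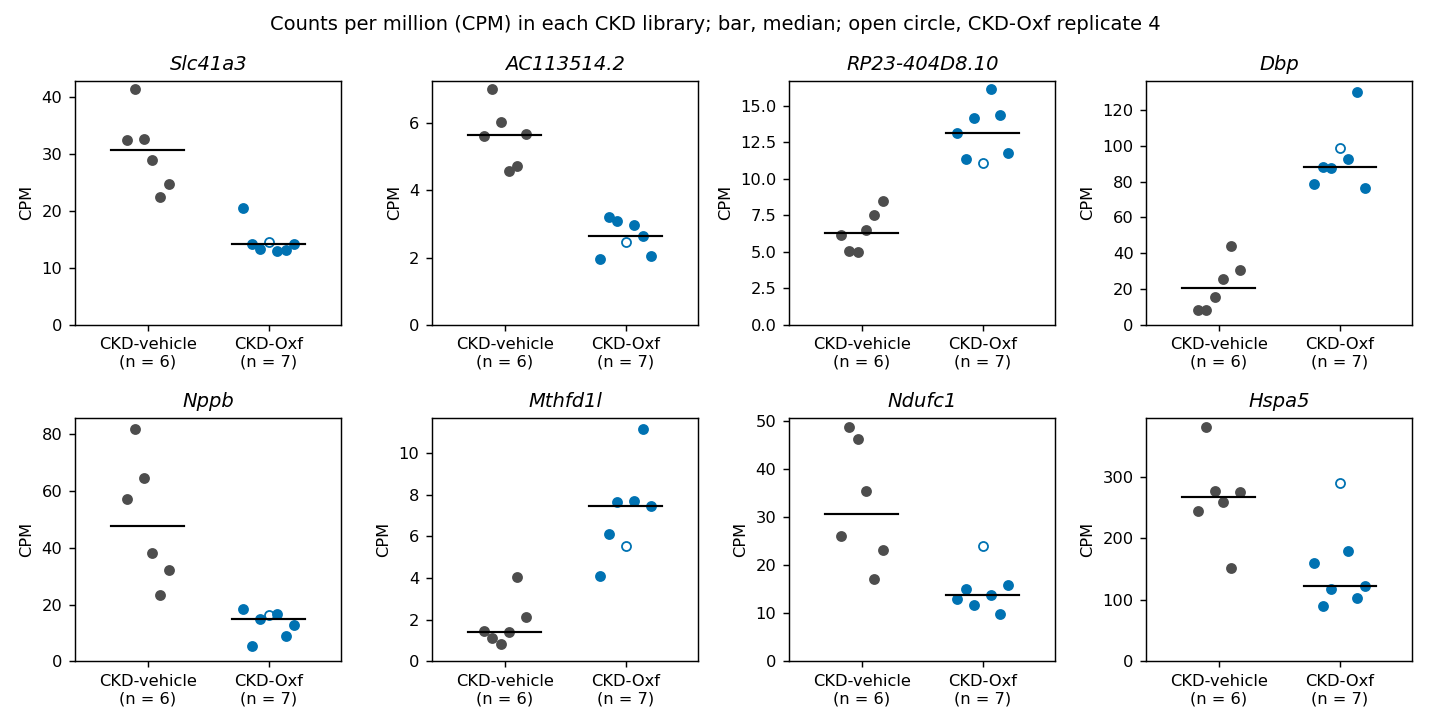
Level in CPM (vertical axes, linear) of named genes in each of the 6 CKD-vehicle and 7 CKD-Oxf libraries. Points are mice, bars are group medians and the open circle is CKD-Oxf replicate 4. Slc41a3 lies at 13.02 to 20.6 CPM in CKD-Oxf and at 22.5 to 41.4 CPM in CKD-vehicle.

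Among the 6 called protein-coding genes, 3 have the letters CACGTG, the core of the E-box that the clock activators bind, within the 250 bases before a RefSeq start site: Slc41a3, Tef and Bhlhe41. Their upstream sequences are shown because the first differed in the opposite direction from the others. They come from RefSeq's promoters on build GRCm38.p6, read 5′ to 3′ on the gene's strand, trimmed to the longest stretch outside annotated exons, with the motif in capitals.
Slc41a3, chr6:90618996-90619146, plus strand: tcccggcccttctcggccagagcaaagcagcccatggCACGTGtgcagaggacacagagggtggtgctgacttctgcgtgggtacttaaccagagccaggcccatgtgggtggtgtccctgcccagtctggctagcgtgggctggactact
Tef, chr15:81811164-81811413, plus strand: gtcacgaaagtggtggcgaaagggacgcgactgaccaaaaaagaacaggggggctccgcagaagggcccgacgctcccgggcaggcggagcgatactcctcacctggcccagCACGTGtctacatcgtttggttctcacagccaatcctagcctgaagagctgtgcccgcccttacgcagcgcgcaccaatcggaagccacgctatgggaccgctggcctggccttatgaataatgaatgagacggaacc
Bhlhe41, chr6:145865559-145865670, minus strand: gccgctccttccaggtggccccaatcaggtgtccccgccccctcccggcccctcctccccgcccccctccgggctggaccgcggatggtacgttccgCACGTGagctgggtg
The first base of the motif is 213, 138 and 153 bases before the start site of Slc41a3, Tef and Bhlhe41. The Slc41a3 start site used by RefSeq lies inside the gene span given above. Both strands were searched, and CACGTG reads the same on both. Of all 32851 RefSeq mouse promoter windows of that length, 1978 (6.02%) hold it. Over both clock lists, 5 of the 16 genes with a promoter in the table hold it, and among the 20 genes with the largest changes described below, 1 of the 15 with a promoter does (Inf2). A match is a description of the letters and not a bound site.

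The count of calls rested on single libraries. Leaving out CKD-Oxf replicate 4, a step singled out after earlier results were known, gave 927 called genes of 24232 (3.83%), 371 higher (1.53%) and 556 lower (2.29%), and all 8 genes above were among them. Leaving out CKD-vehicle replicate 1 or replicate 2 gave 0 calls in edgeR, with 2801 and 1777 genes at an unadjusted p under 0.05, against 3178 with all libraries. Limma voom, which gave CKD-Oxf replicate 4 a weight of 0.239, called 3620 genes (14.9%), of which 1577 were higher (6.5%) and 2043 lower (8.42%), among them 917 of the 927. The DESeq2 Wald test called 190 (0.783%), of which 140 were among the 927. With both CKD-Oxf replicate 4 left out and the clock score as covariate, edgeR called 0 genes, with 1027 at an unadjusted p under 0.05. In the paragraphs that follow, "rose" and "fell" refer only to genes called without CKD-Oxf replicate 4, and none of those genes was called with the clock covariate. Unless stated otherwise, the log2 difference, SE and adjusted p of such a gene come from the fit without that library. Its CPM ranges and medians still include CKD-Oxf replicate 4. Values of genes that were not called come from the fit with all libraries unless stated otherwise. Counts of list members that rose or fell stand beside 1.53% and 2.29% of all genes. Counts at an unadjusted p under 0.05 with all libraries stand beside 3178 of 24273 genes. The median log2 difference of all genes was 0.03 with all libraries, and 46.8% of genes were below 0.

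Outside the clock lists, the 10 largest rises without CKD-Oxf replicate 4 were led by Mthfd1l and the 10 largest falls by Nppb. Mthfd1l, the mitochondrial enzyme that makes formate from folate-bound carbon units, lay at 0.818 to 4.03 CPM (median 1.43) in CKD-vehicle and at 4.09 to 11.2 CPM (median 7.48) in CKD-Oxf. The groups did not overlap, and the log2 difference was 2.02 ± 0.41 (edgeR adjusted p = 0.0357) without the library and 1.96 ± 0.39 (adjusted p = 0.0558) with it. The other rises were Pik3cd, a catalytic subunit of phosphoinositide 3-kinase (1.19 ± 0.31), the transcriptional repressor E2f7 (1.14 ± 0.29), Fanca of the Fanconi DNA repair complex (1.11 ± 0.24), Ccdc88c (1.10 ± 0.26), Agap2 (1.08 ± 0.30), the formin Inf2 (1.07 ± 0.25), periaxin or Prx (1.06 ± 0.31), the glutathione transferase Gstt2 (1.04 ± 0.29) and Hhipl1 (1.04 ± 0.24). Of those 9, all had overlapping groups with 7 CKD-Oxf libraries. In a list of genes named as rhythmic in several tissues, Mthfd1l is 1 of 2 that rose and Leo1 (-0.79 ± 0.21), a subunit of the PAF1 complex, 1 of 2 that fell, of 18 tested. Over all genes, 1.53% rose and 2.29% fell. With the clock covariate the log2 difference of Mthfd1l was 0.17, and that of Gstt2 was -0.12, the opposite sign.

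Of the 10 largest falls, 5 encode parts of the respiratory chain or ATP synthase, namely Usmg5 (-1.72 ± 0.43), Ndufb4 (-1.55 ± 0.37), Ndufa5 (-1.48 ± 0.41), Ndufa4 (-1.45 ± 0.38) and Cox7b (-1.45 ± 0.35). The others were Nppb, the small protein Tmem256 (-1.61 ± 0.38), the translocon subunit Sec61g (-1.46 ± 0.30), the mitochondrial thioesterase Acot13 (-1.42 ± 0.41) and Fgl2, a fibrinogen-like protein (-1.37 ± 0.32). Cox7b shows how these genes were spread over the libraries. It lay at 62.00 to 246 CPM (median 160.3) in CKD-vehicle and at 31.2 to 174 CPM (median 59.7) in CKD-Oxf, where CKD-Oxf replicate 4 had the highest value and the next library was at 77.9 CPM. The log2 difference with all libraries was -1.08 ± 0.38 (edgeR adjusted p = 0.26).

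Nuclear genes of the respiratory chain and ATP synthase, which make most of the ATP of the heart, lay below 0 throughout. All 78 tested genes had a log2 difference below 0 with all libraries, from -1.21 to -0.17, with a median of -0.63, and 43 had an unadjusted p under 0.05. Without CKD-Oxf replicate 4, 23 of 78 fell (29.5%, beside 2.29% of all genes) and 0 rose. By part of the chain, 12 of 37 genes of complex I fell, 1 of 4 of complex II, 1 of 9 of complex III, 3 of 11 of complex IV and 6 of 16 of ATP synthase. Genes were put into parts by their names, so Ndufa4, whose protein is now placed in complex IV, counts with complex I. The medians of the parts lay between -0.73 in complex IV and -0.46 in complex II with all libraries.

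Single members of the chain bear the same spread. The complex I subunit Ndufc1 lay at 17.1 to 48.8 CPM (median 30.8) in CKD-vehicle and at 9.83 to 24.1 CPM (median 13.8) in CKD-Oxf, with a log2 difference of -1.31 ± 0.27 without CKD-Oxf replicate 4 (edgeR adjusted p = 0.0358). Cox6a2, the heart and muscle form of a complex IV subunit, lay at 98.2 to 322 CPM (median 174) and at 41.7 to 108 CPM (median 84.4) in the same order, with a log2 difference of -1.24 ± 0.35. Only the highest CKD-Oxf library of Cox6a2 reached above the lowest CKD-vehicle library. Ndufa7 of complex I and Atp5k of ATP synthase fell, with log2 differences of -1.13 ± 0.25 and -1.10 ± 0.30. Sdhd, an anchor subunit of complex II, fell as well (-1.08 ± 0.26), as did the complex III core protein Uqcrc2 (-1.23 ± 0.32) and the complex IV subunit Cox7c (-0.85 ± 0.25).

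The list level of a library, the mean log2 CPM of the members minus the CKD-vehicle mean, makes the overlap plain. For the respiratory chain it was -0.85, -0.02 and 0.76 (lowest, median, highest) in CKD-vehicle and -1.40, -0.75 and 0.27 in CKD-Oxf. A total of 6 of 7 CKD-Oxf libraries lay below the CKD-vehicle median, and CKD-Oxf replicate 4 was the one above it. The level moved with the 7SL share as well. The 3 CKD libraries with a 7SL share under 3% (CKD-vehicle replicate 5, CKD-Oxf replicates 6 and 7) had levels of -0.85, -1.40 and -0.75. The 3 with a share over 19% (CKD-vehicle replicates 2 and 3, CKD-Oxf replicate 4) had levels of 0.76, 0.45 and 0.27. With the log2 7SL share as a covariate the list median was -0.35, and with the clock score as a covariate it was 0.17, the opposite sign. With the clock covariate and without CKD-Oxf replicate 4 the median was -0.09, so the change of sign depended on that library. With no covariate, leaving out 1 library at a time gave medians from -0.82 to -0.45.

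**Figure D2:**
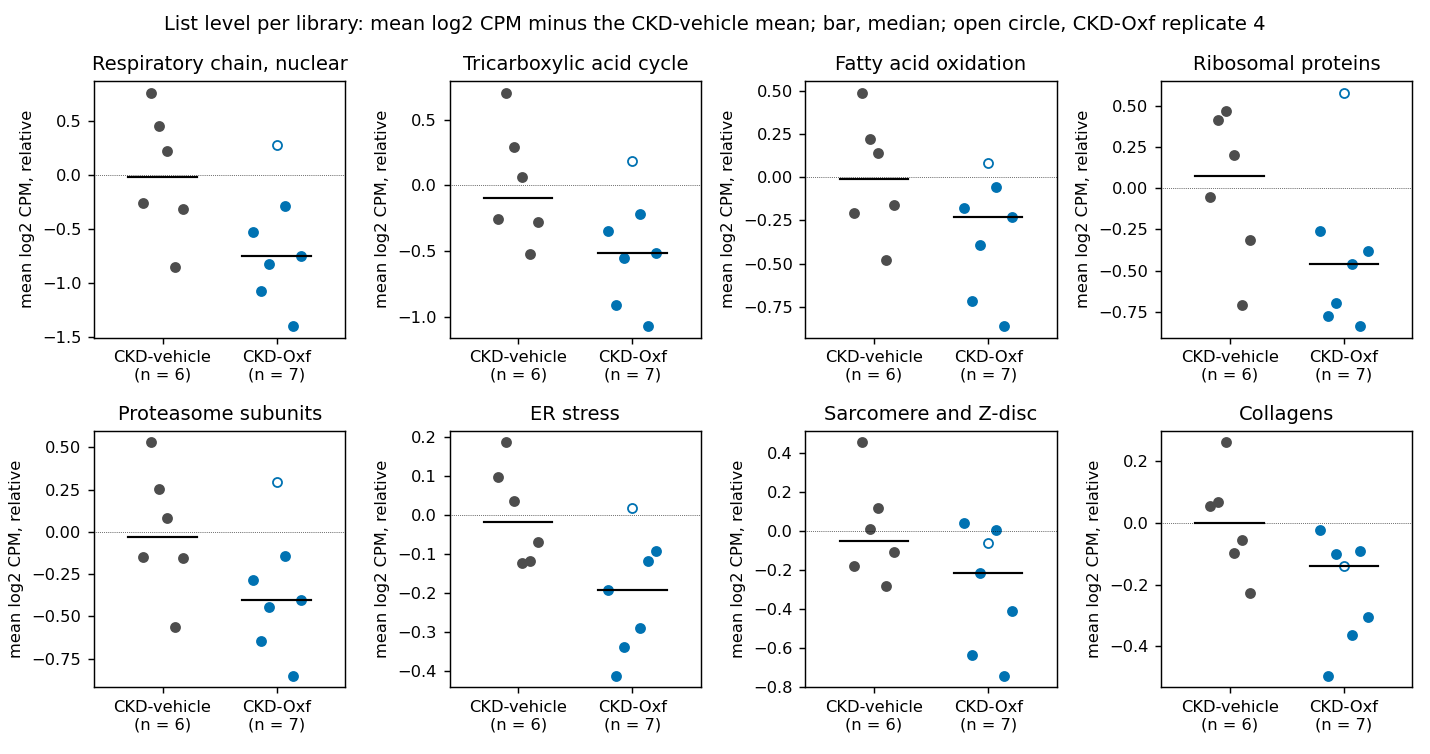
List levels (vertical axes, mean log2 CPM of the tested members minus the CKD-vehicle mean) per mouse for lists that the text describes. Bars are group medians and the open circle is CKD-Oxf replicate 4, which has the highest respiratory chain level of the CKD-Oxf libraries (0.27).

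Fuel supply to the chain had the same sign. In the tricarboxylic acid cycle 21 of 22 genes were below 0 with all libraries (median -0.50). Without CKD-Oxf replicate 4, 4 fell (18.2%, beside 2.29% of all genes). They were the isocitrate dehydrogenase subunits Idh3a (-0.93 ± 0.23) and Idh3g (-0.78 ± 0.22), Dld (-1.07 ± 0.27), which serves several dehydrogenase complexes, and Sdhd, which the chain list also holds. In fatty acid oxidation 27 of 34 genes were below 0 (median -0.44). Of the 34, 3 fell (8.82%), Acot13 among them, while 1 rose (2.94%, beside 1.53% of all genes). Cpt2, the inner membrane carnitine transferase, lay at 23.2 to 47.3 CPM (median 28.5) in CKD-vehicle and at 14.3 to 27.5 CPM (median 18.8) in CKD-Oxf (log2 difference -0.75 ± 0.20, edgeR adjusted p = 0.039). Hadhb, a subunit of the trifunctional enzyme, fell (log2 difference -1.02 ± 0.29). The gene that rose was Cpt1a, the outer membrane carnitine transferase that is the minor form in heart. It lay at 32.97 to 46.6 CPM (median 40.4) in CKD-vehicle and at 46.1 to 85.02 CPM (median 55.2) in CKD-Oxf (log2 difference 0.59 ± 0.15, edgeR adjusted p = 0.0367). Cpt1a and Cpt2 thus differed in direction. Cpt1b, the other outer membrane form in the list, neither rose nor fell.

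Other energy lists held fewer called genes. In glycolysis, pyruvate and glycogen metabolism 34 of 40 genes were below 0 (median -0.24). There 1 gene fell (2.5%, near the 2.29% of all genes), the phosphoglycerate mutase Pgam1 (-0.70 ± 0.16). In branched-chain amino acid catabolism 20 of 24 were below 0 (median -0.14) and 3 fell (12.5%). They were Hibch (-0.70 ± 0.20), the methylmalonyl-CoA mutase Mut (-0.64 ± 0.18) and the dehydrogenase Acadsb (-0.69 ± 0.20). The 6 ketone body genes had a median of -0.45 with 0 calls. The 15 transcripts of the mitochondrial genome had a median of -0.41, and 13 were below 0, with 0 called in edgeR with or without CKD-Oxf replicate 4 and 3 at an unadjusted p under 0.05. In triglyceride storage the median was 0.03 and 1 gene fell (4%), Fitm2, which shapes lipid droplets (-0.52 ± 0.15). With the clock covariate the medians of the cycle, fatty acid oxidation and glycolysis lists were 0.16, 0.19 and 0.18. Those of the branched-chain and ketone body lists were 0.09 and 0.24, also above 0, while that of the mitochondrial genome was -0.22. With CKD-Oxf replicate 4 left out as well, the cycle and branched-chain medians were -0.03 and -0.04. Those of fatty acid oxidation, glycolysis, ketone bodies and the mitochondrial genome were then 0.04, 0.08, 0.07 and -0.27. With the log2 7SL share as covariate the medians of the cycle, fatty acid oxidation, glycolysis, branched-chain and ketone body lists were -0.27, -0.20, -0.10, -0.06 and -0.13.

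**Figure D3:**
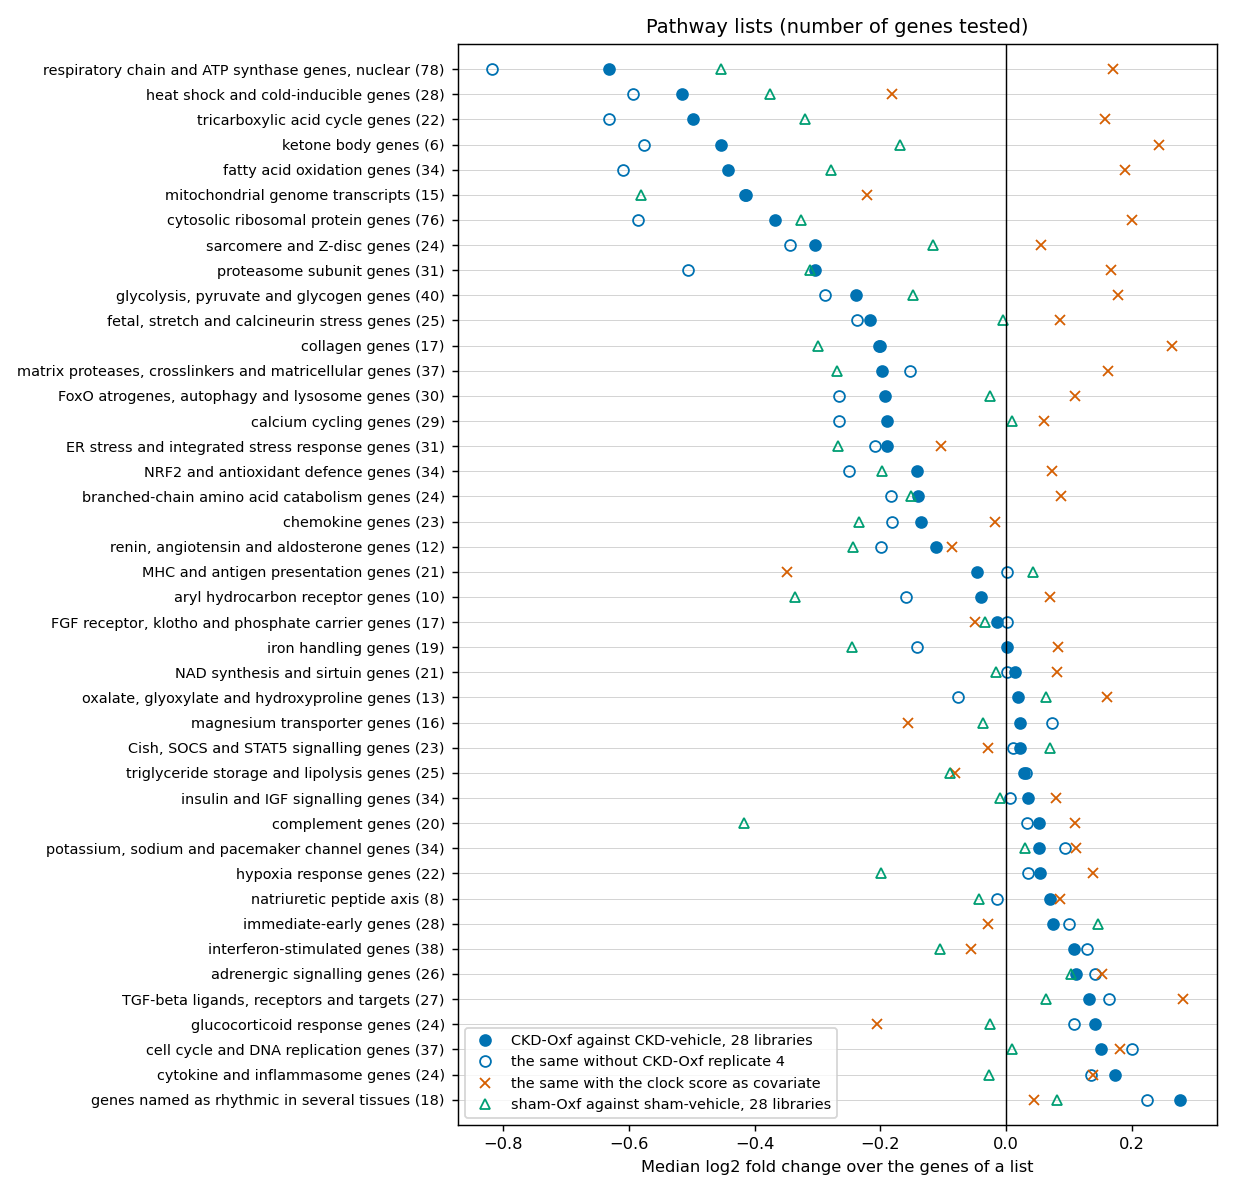
Median log2 fold change (horizontal axis) over the tested genes of each pathway list, with the number of genes in brackets. Filled circles are CKD-Oxf against CKD-vehicle in all libraries, open circles the same without CKD-Oxf replicate 4, crosses the same with the clock score as covariate and triangles sham-Oxf against sham-vehicle; the respiratory chain list lies at -0.63, -0.82, 0.17 and -0.45.

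Protein synthesis and turnover lists also lay below 0. Of 76 cytosolic ribosomal protein genes, 73 were below 0 with all libraries (median -0.37), and 17 fell without CKD-Oxf replicate 4 (22.4%). Rpl39, a small protein of the large subunit, lay at 12.3 to 38.2 CPM (median 23.2) in CKD-vehicle and at 6.67 to 20.8 CPM (median 9.98) in CKD-Oxf (log2 difference -1.18 ± 0.27). Rps27a, made as a fusion with ubiquitin, fell (log2 difference -1.25 ± 0.27), and Rps15a and Rpl27 had log2 differences of -0.82 ± 0.19 and -0.81 ± 0.21. Ribosomal protein genes have many processed pseudogenes, and 60 of the 927 called genes are processed pseudogenes, so the split of reads among copies is uncertain. CKD-Oxf replicate 4 had a ribosomal list level of 0.58, the highest of all 13 CKD libraries, and the next CKD-Oxf library was at -0.26.

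Of 31 proteasome subunit genes, 30 were below 0 (median -0.30, and -0.51 without CKD-Oxf replicate 4) and 7 fell (22.6%). Psma6 and Psma1, of the outer rings of the core particle, fell, with log2 differences of -1.09 ± 0.27 and -0.80 ± 0.18, and Psmb3, of its inner rings, fell as well (-0.85 ± 0.21). Among chaperones, 26 of 28 heat shock and cold-inducible genes were below 0 (median -0.52), with 2 falls, beside 2.29% of all genes. They were the mitochondrial co-chaperonin Hspe1 (-0.91 ± 0.27) and Hspa4l (-0.60 ± 0.18). Hspb7, a small heat shock protein of muscle, lay at 287 to 615 CPM (median 372) in CKD-vehicle and at 153 to 294 CPM (median 249) in CKD-Oxf and did not pass in either fit (edgeR adjusted p = 0.224 with all libraries and 0.0591 without CKD-Oxf replicate 4).

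Chaperones of the endoplasmic reticulum were among the falls. The list for its stress and the integrated stress response had 21 of 31 genes below 0 (median -0.19), and 6 fell (19.4%). Hspa5, also called BiP, lay at 152 to 381 CPM (median 267) in CKD-vehicle and at 90.5 to 289.9 CPM (median 123) in CKD-Oxf (log2 difference -1.04 ± 0.27, edgeR adjusted p = 0.038). Hsp90b1 lay at 113 to 165 CPM (median 152) and at 76.6 to 128 CPM (median 89.9) in the same order and fell (log2 difference -0.66 ± 0.15). The lectin chaperones Calr and Canx fell, with log2 differences of -0.75 ± 0.18 and -0.60 ± 0.16, and the disulfide isomerases Pdia3 and Pdia6 with -0.67 ± 0.18 and -0.60 ± 0.18. With the clock covariate the log2 differences of these 6 genes, in the order named, were -0.24, -0.46, -0.21, -0.11, -0.06 and 0.06, the last of the opposite sign. The list medians of the heat shock and endoplasmic reticulum genes were -0.18 and -0.10 in that fit, while those of the ribosome and proteasome were 0.20 and 0.17. With CKD-Oxf replicate 4 left out as well, the ribosome and proteasome medians were -0.09 and -5.0e-05. With the log2 7SL share as covariate the medians of the ribosome, proteasome and heat shock lists were -0.19, -0.13 and -0.31.

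Among 34 genes of the NRF2 and antioxidant defence list, 2 fell, beside 2.29% of all genes. Both are peroxiredoxins, which remove peroxides. Prdx1 lay at 23.5 to 70.4 CPM (median 45.8) in CKD-vehicle and at 13.9 to 48.4 CPM (median 23.3) in CKD-Oxf (log2 difference -1.23 ± 0.26), and Prdx2 fell (log2 difference -0.91 ± 0.26), with 0.06 under the clock covariate. Ephx1, an epoxide hydrolase, was the member with no overlap between the groups, at 29.1 to 36.6 CPM (median 34.2) in CKD-vehicle and 39.2 to 64.00 CPM (median 46.7) in CKD-Oxf, and it was not called (log2 difference 0.49 ± 0.15, edgeR adjusted p = 0.2). Over all genes, 116 of 24273 had no overlap (0.478%), 53 higher and 63 lower.

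Contractile and stress genes of the myocyte were lower in part. Actc1, the cardiac actin of the thin filament, lay at 1216 to 2897 CPM (median 1466) in CKD-vehicle and at 487 to 1096 CPM (median 897) in CKD-Oxf, with no overlap. It fell (log2 difference -1.01 ± 0.26) (edgeR adjusted p = 0.039 without CKD-Oxf replicate 4, and 0.196 with it). Tnni3, cardiac troponin I, lay at 609 to 1843 CPM (median 1168) and at 396 to 929 CPM (median 624) and fell (log2 difference -0.95 ± 0.27). These were the 2 falls among 24 sarcomere and Z-disc genes (8.33%, beside 2.29% of all genes). Of the 24, 19 were below 0 with all libraries (median -0.30, and 0.05 with the clock covariate). With that covariate and without CKD-Oxf replicate 4 the median was -0.02. Actc1 and Tnni3 are also ventricular cardiomyocyte markers. The median of the 12 markers was -0.54, while their summed CPM had medians of 69662 in CKD-Oxf and 73769 in CKD-vehicle. In bulk tissue, fewer cells of a type and less RNA per cell cannot be told apart.

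Skeletal muscle markers were uneven among the CKD-vehicle libraries. The list shares Ckm with the ventricular cardiomyocyte markers and Acta1 with the fetal and stress genes. Its sum can therefore hold RNA of cardiomyocytes. The median log2 difference of the 10 tested markers was -3.09, with none called, and it was 0.46 with the clock covariate, the opposite sign. Their summed level was 128 to 487 CPM in CKD-Oxf (median 265) and 213 to 1121 CPM in CKD-vehicle (median 355). CKD-vehicle replicates 1 and 2 had 1121 and 751 CPM and the other 4 had 213 to 364 CPM, and the median list levels of the groups were -0.95 in CKD-Oxf and -0.88 in CKD-vehicle. Atrial markers summed to 357 to 3561 CPM in CKD-Oxf (median 2353) and 2001 to 4449 CPM in CKD-vehicle (median 3577). The part of these markers in the contractile and natriuretic results was not tested.

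Natriuretic peptide signalling lowers pressure and volume, and its cardiac ligand genes mark myocyte stretch. Of the ligand genes, only Nppb is described here. Nppb, which encodes B-type natriuretic peptide, lay at 23.5 to 81.9 CPM (median 47.6) in CKD-vehicle and at 5.40 to 18.6 CPM (median 14.8) in CKD-Oxf. Every CKD-Oxf library was below every CKD-vehicle library. The log2 difference was -1.89 ± 0.40 with all libraries (edgeR adjusted p = 0.0966) and -1.95 ± 0.42 without CKD-Oxf replicate 4 (adjusted p = 0.0358). Nppb was called in 2 of the 13 fits that left out 1 of the CKD libraries, and its log2 difference with the clock covariate was -0.51 ± 0.50. The guanylyl cyclase receptors differed in the other direction. Npr1, the receptor of the peptides made by the heart, rose by 0.53 ± 0.13 and Npr2, the receptor of C-type natriuretic peptide, rose by 0.57 ± 0.16. The protease Furin, which can process the precursors, had a log2 difference of 0.20 ± 0.14 and was not called (edgeR adjusted p = 0.562). The 8 genes of the axis had 4 values above and 4 below 0.

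Of 25 fetal, stretch and calcineurin stress genes, 21 were below 0 (median -0.22, and 0.09 with the clock covariate). Of the 25, 2 fell (8%, beside 2.29% of all genes): the LIM protein Fhl1 (-0.49 ± 0.14) and Ppp3cb, a catalytic subunit of calcineurin (-0.32 ± 0.09). Rcan1, a target and inhibitor of calcineurin, had a log2 difference of -0.61 ± 0.21 with an edgeR adjusted p of 0.244, and 0.0637 without CKD-Oxf replicate 4. Cdkn1a, the cyclin-dependent kinase inhibitor p21, lay at 17.1 to 37.6 CPM (median 23.02) in CKD-vehicle and at 3.48 to 16.1 CPM (median 12.5) in CKD-Oxf without overlap, and its edgeR adjusted p was 0.214 with and 0.0505 without that library.

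Of 29 calcium cycling genes, 5 fell (17.2%, beside 2.29% of all genes) and 1 rose (3.45%, beside 1.53%). Casq2, the calcium buffer of the sarcoplasmic reticulum, lay at 163 to 704 CPM (median 330.4) in CKD-vehicle and at 112 to 384 CPM (median 165) in CKD-Oxf and fell (log2 difference -1.31 ± 0.33), with 0.09 under the clock covariate. Asph, whose locus also encodes the junctional proteins junctin and junctate, fell (log2 difference -0.37 ± 0.10). Camk2d, the main cardiac isoform of calcium and calmodulin-dependent kinase, lay at 136 to 164 CPM (median 144) in CKD-vehicle and at 104 to 134 CPM (median 118) in CKD-Oxf with no overlap, and fell (-0.30 ± 0.09). The other falls were the triadin gene Trdn (-1.19 ± 0.28), whose protein binds calsequestrin at the release channel, and the calmodulin gene Calm2 (-0.58 ± 0.16). Itpr2, the inositol trisphosphate receptor of cardiomyocytes, rose by 0.79 ± 0.21.

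Among 34 potassium, sodium and pacemaker channel genes and their partners, 1 fell (2.94%) and 2 rose (5.88%), shares near the 2.29% and 1.53% of all genes. Gja1, the gap junction protein connexin 43, lay at 143 to 349.8 CPM (median 199) in CKD-vehicle and at 108 to 174 CPM (median 125) in CKD-Oxf and fell (log2 difference -0.70 ± 0.17). Kcnh2, a delayed rectifier potassium channel, rose by 0.66 ± 0.19. In adrenergic signalling, Pde3a, which degrades cyclic AMP, fell (log2 difference -0.60 ± 0.13) and so did Prkar1a, a regulatory subunit of protein kinase A (-0.70 ± 0.19), while the receptor adaptor Arrb2 rose by 0.55 ± 0.15. They are single genes and no result about that list, beside 2.29% of all genes that fell and 1.53% that rose. The medians of the calcium, channel and adrenergic lists were -0.19, 0.05 and 0.11, and with the clock covariate that of the calcium list was 0.06.

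Matrix genes showed few calls. Of 17 collagen genes 15 were below 0 with all libraries (median -0.20), but edgeR called 0 with or without CKD-Oxf replicate 4, and 3 had an unadjusted p under 0.05. Col3a1, a fibrillar collagen, lay at 114 to 265 CPM (median 178) in CKD-vehicle and at 71.5 to 181 CPM (median 128) in CKD-Oxf (log2 difference -0.56 ± 0.28, edgeR adjusted p = 0.387). All 7 CKD-Oxf libraries were below the CKD-vehicle median of the collagen list level, and the groups overlapped. The list of proteases, crosslinkers and matricellular proteins had 3 falls among 37 genes (8.11%, beside 2.29% of all genes). They were the proteoglycans Lum (-1.24 ± 0.30) and Dcn (-0.90 ± 0.26) and the collagen chaperone Serpinh1 (-0.93 ± 0.25). Lum lay at 17.5 to 46.8 CPM (median 25.2) in CKD-vehicle and at 8.28 to 29.7 CPM (median 11.9) in CKD-Oxf.

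Fibroblast markers moved with these genes. The 12 markers summed to 1159 to 2281 CPM in CKD-vehicle (median 1520) and to 799 to 2316 CPM in CKD-Oxf (median 1025), where CKD-Oxf replicate 4 was the highest and the next library was at 1159.7 CPM. All 12 had a log2 difference below 0 (median -0.33), and Dcn and Lum are among them. The part of the fibroblast markers in the matrix result was not tested. The list of TGF-beta ligands, receptors and targets also holds inhibitors of the pathway, such as Smad7. It had the other sign: 19 of 27 were above 0 (median 0.13), with 0 called in either edgeR fit and 2 at an unadjusted p under 0.05. Its median is therefore no measure of the signals that drive matrix production. Tgfb1 lay at 17.3 to 21.7 CPM (median 18.3) in CKD-vehicle and at 21.1 to 26.4 CPM (median 24.3) in CKD-Oxf (log2 difference 0.35 ± 0.13, edgeR adjusted p = 0.27). With the clock covariate the collagen median was 0.26, the opposite sign, and the TGF-beta median 0.28.

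Immune lists gave almost no calls in edgeR. With all libraries, and without CKD-Oxf replicate 4, 0 genes were called among 24 cytokine and inflammasome genes, 21 antigen presentation genes, 38 interferon-stimulated genes and 20 complement genes. Their counts at an unadjusted p under 0.05 with all libraries were 3, 0, 11 and 2, beside 3178 of all 24273 genes. Their medians were 0.17, -0.05, 0.11 and 0.05. Leaving out 1 library at a time moved the antigen presentation median between -0.16 and 0.11, the interferon median between 0.03 and 0.21 and the complement median between -0.02 and 0.12. With the clock covariate the antigen presentation and interferon medians were -0.35 and -0.06. The single fall was Ackr3, a scavenging chemokine receptor, among the chemokine genes (-0.66 ± 0.17). It made up 4.55% of that list, beside 2.29% of all genes. Tnf was near the lower end of detection, at 0.121 to 0.43 CPM (median 0.284) in CKD-vehicle and 0.215 to 1.43 CPM (median 0.424) in CKD-Oxf (edgeR adjusted p = 0.395).

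Interferon-stimulated genes differed in sign among themselves. Ifit3 lay at 5.90 to 7.51 CPM (median 6.38) in CKD-vehicle and at 6.08 to 14.5 CPM (median 10.05) in CKD-Oxf (log2 difference 0.65 ± 0.21), whereas Irgm2, a GTPase induced by interferon gamma, lay at 13.3 to 60.5 CPM (median 17.6) and at 11.7 to 19.5 CPM (median 13.95) (log2 difference -0.72 ± 0.26). Neither was called (edgeR adjusted p = 0.23 and 0.262). Lymphocyte markers were uneven, at 20.5 to 211 CPM in CKD-vehicle (median 25.4) and 20.5 to 833 CPM in CKD-Oxf (median 22.7). They were high in CKD-Oxf replicates 6 (833 CPM) and 7 (529 CPM) and in CKD-vehicle replicate 5 (211 CPM). CKD-Oxf replicate 6 also had the highest level of the antigen presentation list in its group (0.85). Macrophage markers summed to 173 to 260 CPM in CKD-Oxf and 185 to 321 CPM in CKD-vehicle. The part of these cells in the immune lists was not tested.

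**Figure D4:**
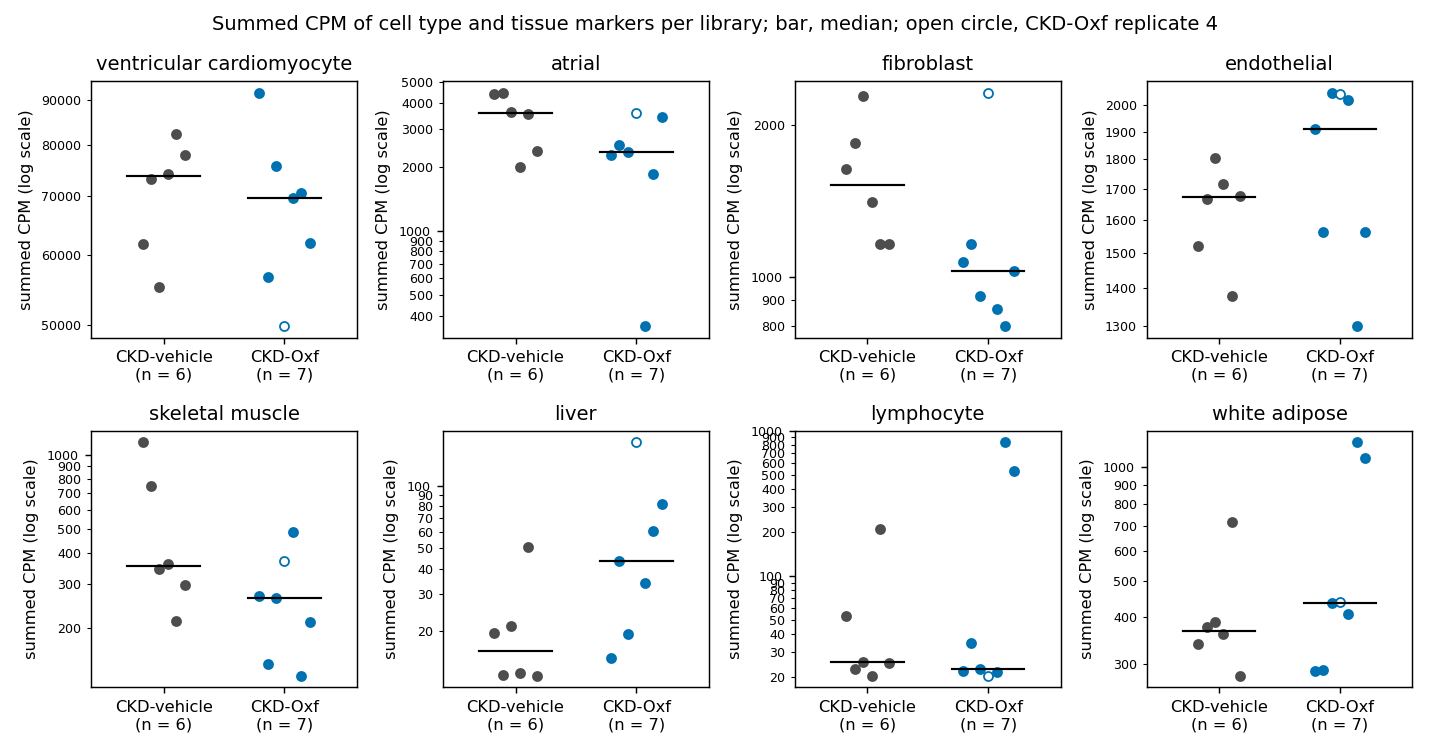
Summed CPM (vertical axes, log scale) of marker lists of cell types and tissues in each CKD library. Points are mice, bars are group medians and the open circle is CKD-Oxf replicate 4; fibroblast markers reach 2316 CPM in that library and 799 to 1159.7 CPM in the other 6 CKD-Oxf libraries.

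Of 13 oxalate, glyoxylate and hydroxyproline genes, 3 rose without CKD-Oxf replicate 4 (23.1%, beside 1.53% of all genes). Prodh, the proline dehydrogenase, lay at 12.2 to 26.6 CPM (median 17.8) in CKD-vehicle and at 20.04 to 37.7 CPM (median 33.1) in CKD-Oxf (log2 difference 0.79 ± 0.20, edgeR adjusted p = 0.0359). Slc26a11 and Slc26a10, members of the anion transporter family that includes oxalate carriers, rose by 0.64 ± 0.18 and 0.85 ± 0.23. The median of the list was 0.02, and from -0.08 to 0.09 when 1 library at a time was left out. The 3 rises therefore do not stand for the list as a whole. Among 16 magnesium transporter genes, Slc41a3 was called with all libraries, and Magt1, which also serves protein glycosylation, fell without CKD-Oxf replicate 4 (-0.79 ± 0.18). Over all genes, 2.29% fell in that fit. Slc41a1, the relative of Slc41a3, lay at 34.3 to 42.98 CPM (median 39.03) in CKD-vehicle and at 40.4 to 54.5 CPM (median 45.3) in CKD-Oxf (log2 difference 0.29 ± 0.11, edgeR adjusted p = 0.29), the other direction.

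Of 19 iron handling genes 2 fell (10.5%, beside 2.29% of all genes). Tfrc, the transferrin receptor, lay at 24.5 to 49.8 CPM (median 35.5) in CKD-vehicle and at 11.7 to 29.6 CPM (median 19.6) in CKD-Oxf and fell (log2 difference -0.90 ± 0.23). In the list of FGF receptors, klotho and phosphate carriers, which is of interest in CKD because FGF23 acts through these receptors, Fgfr3 rose (0.78 ± 0.22) and Fgfr1 did not pass (0.29 ± 0.16, edgeR adjusted p = 0.43). Fgfr3 is a single gene, beside 1.53% of all genes that rose. In the renin, angiotensin and aldosterone list 0 of 12 genes were called in either edgeR fit, with 3 at an unadjusted p under 0.05. Cyp1a1, the sensor gene of the aryl hydrocarbon receptor that uremic toxins activate, was at most 0.555 CPM in any CKD library and was not called. For the glucocorticoid response, immediate-early, NAD and sirtuin lists edgeR called 0 genes in either fit, with 3, 1 and 2 at an unadjusted p under 0.05 and medians of 0.14, 0.07 and 0.01. These medians ran from 0.04 to 0.27, from -0.17 to 0.18 and from -0.03 to 0.03 when 1 library at a time was left out, and that of the glucocorticoid list was -0.21 with the clock covariate.

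Growth signalling and cell cycle lists held a few rises. In insulin and IGF signalling 2 of 34 genes rose (5.88%, beside 1.53% of all genes). They were the phosphoinositide 3-kinase subunits Pik3r2 (0.56 ± 0.15) and Pik3cb (0.44 ± 0.12). Igf1 had a log2 difference of -0.84 ± 0.29 that was not called (edgeR adjusted p = 0.243). In the cell cycle and DNA replication list 27 of 37 genes were above 0 (median 0.15). Of the 37, 2 rose, again beside 1.53% of all genes: the checkpoint kinase Wee1 (0.88 ± 0.25) and Cdk2 (0.50 ± 0.14). Wee1 is also a clock-controlled gene, and its log2 difference was -0.07 with the clock covariate and without CKD-Oxf replicate 4. Among the remaining lists, Cish, a STAT5 target that damps cytokine signals, fell (-0.56 ± 0.16), the lysosomal membrane protein Lamp2 fell (-0.60 ± 0.16) and Ankrd37, a hypoxia-induced gene, rose (0.88 ± 0.21). Lamp2 was the 1 fall among 30 FoxO, autophagy and lysosome genes (3.33%, near the 2.29% of all genes). Cish and Ankrd37 are single genes, beside 2.29% of all genes that fell and 1.53% that rose. The medians of the STAT5, FoxO and hypoxia lists were 0.02, -0.19 and 0.05.

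Called genes differed in composition. Without CKD-Oxf replicate 4, the 365 protein-coding genes that rose had a median transcript length of 4235 nucleotides and a median GC content of 54.4%. The 428 that fell had medians of 2939.5 nucleotides and 42.1%, against 3339.5 nucleotides and 49.8% in all 15560 tested protein-coding genes of that fit. With all libraries, the median log2 difference climbed over 5 equal bins of GC content from -0.15 in the lowest to 0.22 in the highest. It was -0.06 in the bin of the shortest transcripts and 0.12 in that of the longest. Respiratory chain and ribosomal protein genes are short, with list medians of 1094 and 1100 nucleotides. The part of transcript length and base composition in the list results was not tested. With the clock covariate the GC bins ran from -0.09 to 0.15.

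**Figure D5:**
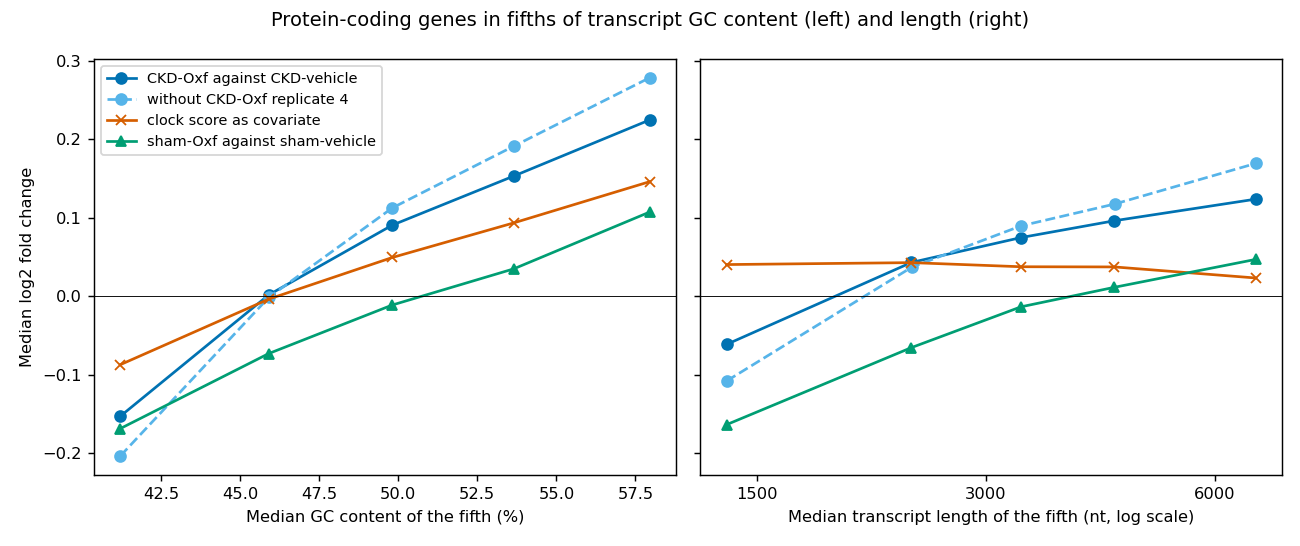
Median log2 fold change (vertical axis) of protein-coding genes in 5 equal bins of transcript GC content (left, percent) and transcript length (right, nucleotides, log scale), for the fits named in the key. Each point is the median of 1 bin; in CKD-Oxf against CKD-vehicle with all libraries the GC bins run from -0.15 to 0.22.

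The same gavage in sham-operated mice, which shares no library with the CKD comparison, gave the following values. EdgeR called 0 of 24273 genes in sham-Oxf against sham-vehicle, with 3054 at an unadjusted p under 0.05 and 131 called by DESeq2. The interaction of gavage and surgery had 0 calls in edgeR, 862 at an unadjusted p under 0.05 and 0 in DESeq2 and limma voom, so no gene passed a test of a CKD-specific response. Of the 927 genes called in CKD without CKD-Oxf replicate 4, 896 (96.7%) had the same sign in the sham mice, beside 67.8% of all genes. Slc41a3 had a log2 difference of -0.76 ± 0.17 in sham mice and one of -1.05 ± 0.17 in CKD mice, with an interaction of -0.29 ± 0.23 (edgeR adjusted p = 1). Nppb had -1.45 ± 0.42 in sham mice, with an interaction of -0.44 ± 0.55 (edgeR adjusted p = 1). All 78 respiratory chain genes were below 0 in sham mice as well (median -0.45), and so were 70 of 76 ribosomal protein genes (median -0.33). The 7SL share was 1.83% to 10.3% in sham-Oxf, under 4% in all but replicate 1, and 2.30% to 19.9% in sham-vehicle. The clock score was 2.23 to 3.31 in sham-Oxf and 0.67 to 3.15 in sham-vehicle. The part of either in the sham values was not tested. Actc1 had -0.28 ± 0.26 and Camk2d -0.02 ± 0.09 in sham mice, and neither passed the interaction test (edgeR adjusted p = 1 and 1). The sham-Oxf group includes 1 library, replicate 1, with 15879 genes counted, and without it 19 genes were called in the CKD comparison.

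CKD-vehicle against sham-vehicle, 2 groups that differ in surgery, had 2 called genes (0.00824%), and 0 with the clock score as covariate. The clock score was -0.26 to 1.79 in CKD-vehicle and 0.67 to 3.15 in sham-vehicle. The part of the clock in the values below was not tested. This comparison shares the CKD-vehicle libraries with CKD-Oxf against CKD-vehicle, so the values of the 2 comparisons are only set side by side. The respiratory chain median was 0.45 in CKD-vehicle against sham-vehicle and -0.63 in CKD-Oxf against CKD-vehicle. For the sarcomere list these medians were 0.39 and -0.30, for collagens -0.04 and -0.20, and for heat shock genes 0.03 and -0.52. Nppb had log2 differences of 1.04 ± 0.35 and -1.89 ± 0.40 in this order, and Slc41a3 had 0.69 ± 0.15 and -1.05 ± 0.17.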

How the data were processed

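Whole-number read counts per gene from 28 mouse heart libraries were used as the authors deposited them, in 1 table of 45513 genes, with 0 columns left without a mapped sample. Per the submitters' processing notes, tools named for the series are FastQC 0.11.7, MultiQC 1.9, STAR 2.6.1d and featureCounts 1.6.3, with build mm10; the annotation and the use of strand are not given in the sources used here. Gene identifiers were matched to GENCODE M21 (45465 of 45513) for positions and gene types.

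Counts were tested in R 4.3.3 with edgeR 4.0.16: TMM scaling, filterByExpr with a minimum count of 10 (24273 genes left), and the robust quasi-likelihood fit of 4 group means over all 28 libraries, which share 1 estimate of the spread. CPM values and log2 levels, the latter with a prior count of 2, were computed from these counts. Each CKD library held 34.3 to 65.4 M counts (M, mega). Adjusted p-values are Benjamini-Hochberg values. The SE was taken from the log2 fold change and the square root of its F statistic, as their ratio. The procedure was tested on simulated data.

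Libraries were grouped by surgery and gavage in the titles. The labels do not say whether libraries of 1 group shared a cage or day, so p-values measure the spread between these mice. The 44 pathway and clock lists, the 18 marker lists beside them and the named genes were chosen with earlier results of these data known. Named genes were every gene called with all libraries, the 10 largest rises and falls called without CKD-Oxf replicate 4 (protein-coding, mean of at least 1 log2 CPM, in no clock list), and up to 4 members of each list with the smallest p. Other members (Trdn, Calm2, Hspa4l, Pdia3, Pdia6, Uqcrc2, Cox7c, Per2, Ciart) and Hectd2, the partner of the antisense transcript, were added after their values were seen. Some genes that this rule names are not reported here.

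The alternatives were DESeq2 1.42.0, limma 3.58.1 voom with sample weights, other scalings and filters, a fit of the compared groups, the clock score or log2 7SL share as covariate, and leaving out each library.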

Additional observations from a re-analysis of the deposited data

Results flagged for a closer look

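The highest or lowest library of a group was set against the library next to it for 187 measures (CPM of named genes, list levels, summed markers and the clock score) in the 7 CKD-Oxf and the 6 CKD-vehicle libraries. A library is given here where the gap took up more of the group's range than Dixon's 95% limit. Of 374 such groups, 68 passed. At 1 in 20, 18.7 would pass if the measures were independent, but measures of the same libraries are not. The largest rises and falls were also named because they were called without CKD-Oxf replicate 4. The count of groups that passed is therefore no test of that library. Each value in brackets below is the gap as a share of the range.

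CKD-Oxf replicate 4 was the highest of its group for 33 genes. The gap was widest for Hspa4l (0.842), Fgl2 (0.783), Trdn (0.773), Psma6 (0.772), Lum (0.762), Tmem256 (0.75), Rps27a (0.748), Calm2 (0.743) and Ppp3cb (0.731). Further genes of this kind were Psmb3 (0.702), Dcn (0.691), Sec61g (0.684), Pdia3 (0.681), Cox7b (0.673), Idh3a (0.667), Usmg5 (0.647), Ndufb4 (0.642) and Hspe1 (0.642). The library also stood highest for Uqcrc2 (0.637), Serpinh1 (0.634), Ndufa7 (0.633), Acadsb (0.622), Prdx1 (0.614), Prdx2 (0.613), Casq2 (0.613), Acot13 (0.607) and Pgam1 (0.606). Smaller gaps past the limit belonged to Sdhd (0.601), Magt1 (0.594), Psma1 (0.579), Ndufc1 (0.578), Ndufa4 (0.574) and Pdia6 (0.57). As an example of the scale, Cox7b was at 174 CPM in this library and at 77.9 CPM in the next. It was also highest for the summed CPM of fibroblast markers (0.762), at 2316 against 1159.7 in the next library. It was also highest for the level of cytosolic ribosomal protein genes (0.595), at 0.578 against -0.263 in the next library. It was the lowest of its group for Cry2 (0.638; 31.9 against 40.7 CPM), Itpr2 (0.612; 66.7 against 161 CPM), Agap2 (0.572; 13.7 against 32.8 CPM) and Slc26a11 (0.617; 4.37 against 6.96 CPM).

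In the other libraries each bracket also gives the library's value and that of its nearest neighbour. CKD-Oxf replicate 1 was the highest for Slc41a3 (0.788; 20.6 against 14.6 CPM), Arntl (0.637; 15.1 against 7.55 CPM) and Leo1 (0.639; 9.25 against 6.34 CPM). CKD-Oxf replicate 1 was the lowest for the clock score (0.578; 1.87 against 2.66). CKD-Oxf replicate 5 was the lowest for the summed CPM of valve and cartilage markers (0.619; 13.9 against 49.2 CPM). CKD-Oxf replicate 6 was the highest for the level of MHC and antigen presentation genes (0.638; 0.849 against 0.0731), Dbp (0.584; 130.2 against 98.7 CPM), Bhlhe41 (0.744; 27.6 against 18.7 CPM) and Tnf (0.796; 1.43 against 0.463 CPM). CKD-Oxf replicate 7 was the highest for the summed CPM of lung markers (0.859; 12.3 against 2.42 CPM). CKD-vehicle replicate 1 was the highest for Npas2 (0.737; 14.8 against 9.92 CPM) and the summed CPM of mesothelium markers (0.728; 249 against 129 CPM). CKD-vehicle replicate 1 was the lowest for the level of hypoxia response genes (0.703; -0.129 against -0.00107). CKD-vehicle replicate 2 was the highest for Camk2d (0.637; 164 against 146 CPM) and Cish (0.733; 53.9 against 36.3 CPM). CKD-vehicle replicate 3 was the highest for the summed CPM of macrophage markers (0.749; 321 against 219 CPM). CKD-vehicle replicate 3 was the lowest for Pik3cb (0.696; 17.4 against 20.4 CPM). CKD-vehicle replicate 4 was the highest for the level of interferon-stimulated genes (0.626; 0.714 against 0.0511) and Irgm2 (0.863; 60.5 against 19.7 CPM). CKD-vehicle replicate 5 was the highest for Hlf (0.713; 23.04 against 14.96 CPM), Bhlhe41 (0.671; 12.6 against 9.88 CPM), Tgfb1 (0.703; 21.7 against 18.6 CPM), Prx (0.679; 4.32 against 2.25 CPM), Fgfr1 (0.702; 74.1 against 52.7 CPM), the summed CPM of lymphocyte markers (0.83; 211 against 52.8 CPM), the summed CPM of white adipose markers (0.754; 718 against 387 CPM), the summed CPM of liver markers (0.77; 50.8 against 21.05 CPM) and the summed CPM of Schwann and neuronal markers (0.735; 37.5 against 23.5 CPM). CKD-vehicle replicate 5 was the lowest for Hsp90b1 (0.655; 113 against 147 CPM).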

How the results depend on the processing

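No paired analysis was possible because the replicate numbers were given in the order of the records and pair no mice. The 8 calls of CKD-Oxf against CKD-vehicle became 190 with DESeq2, 3620 with limma voom, 14 with at least 10 counts in every library, and 5 each with DESeq2 size factors, upper-quartile scaling or no filter. They became 0 with the clock score as covariate, with or without CKD-Oxf replicate 4. Leaving out each library gave 0 to 927. The alternatives added after seeing the data gave 2189 without CKD-Oxf replicate 4 and sham-Oxf replicate 1, and 1720 in a fit of the compared groups without CKD-Oxf replicate 4. The count was 6 to 10 with the compared groups only, the 7SL share as covariate or small RNA genes removed. For sham-Oxf against sham-vehicle the 0 calls became 131 with DESeq2, 32 with limma voom, 141 with the 7SL share and 2 with the clock score, with or without CKD-Oxf replicate 4, and 0 to 20 without single libraries. The interaction gave 0 in every alternative run. For CKD-vehicle against sham-vehicle the 2 calls became 29 with DESeq2, 55 with limma voom, 22 with the 7SL share, 1 each with no filter, small RNA genes removed or upper-quartile scaling, 0 with the clock score, with or without CKD-Oxf replicate 4, and 0 to 2 without single libraries. The clock covariate reversed the log2 fold change of Col3a1 (0.26), Per2 (-0.42), Ciart (-0.29), Casq2 (0.089), Clock (0.038), Ndufa4 (0.077), Ndufa5 (0.13), Prdx2 (0.064), Leo1 (0.0039), Gstt2 (-0.12), Dcn (0.10), Prkar1a (0.028), Pdia6 (0.059), Acot13 (0.092), Cox7c (0.019), Rcan1 (0.26) and Pgam1 (0.025). With CKD-Oxf replicate 4 left out as well, those reversed were Col3a1 (0.21), Per2 (-0.33), Ciart (-0.27), Wee1 (-0.069), Gstt2 (-0.045) and Rcan1 (0.18). No named gene changed sign under the other alternatives run. Per2, Ciart and Clock are part of the clock score, so their values with it as covariate are no test. Several of the reversed values lie near 0, and the score did not overlap between the CKD groups. The cause of the changes under the clock covariate was not tested. The list medians of the FGF and iron lists, both near 0, changed sign with the scaling. When single libraries were left out, so did those of the natriuretic, chemokine, antigen presentation, complement, triglyceride, immediate-early, channel, renin and angiotensin, FGF, magnesium, oxalate, aryl hydrocarbon receptor, iron and NAD lists.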

Other observations

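Marker lists of other tissues and of cells other than cardiomyocytes varied among mice, and none of their genes was called with all libraries. Liver markers, mostly genes of secreted plasma proteins, summed to 14.8 to 162 CPM in CKD-Oxf (median 43.7) and to 12.2 to 50.8 CPM in CKD-vehicle (median 16.1), with the highest value in CKD-Oxf replicate 4. White adipose markers summed to 287 to 1166 CPM in CKD-Oxf and to 279 to 718 CPM in CKD-vehicle. Brown adipose markers had medians of 116 and 178 CPM in the same order. That list shares Cox7a1 and Cox8b with the respiratory chain list and Ppara with the fatty acid oxidation list. Its sum is therefore not separate from those results. Endothelial markers summed to 1301 to 2050 CPM in CKD-Oxf (median 1911) and to 1378 to 1805 CPM in CKD-vehicle (median 1672). Pericyte and smooth muscle markers had medians of 1494 CPM with the bacterium and 1727 CPM without it. Erythroid markers, including the hemoglobin genes, had medians of 43.2 and 41.7 CPM, and neutrophil markers stayed under 10 CPM in every CKD library. Mesothelium markers, which line the heart surface, reached 356 CPM among the CKD-Oxf mice and 248.9 CPM among the CKD-vehicle mice.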
